A study of Rattus norvegicus with 37 samples.

Results

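Shallow water walking (SWW) is a rehabilitation exercise in which a rat with a spinal cord injury steps through water that carries part of its weight. Liver RNA of the 5 rats labelled CONT SCI + SWW was compared with that of the 4 rats labelled CONT SCI, which had the same contusion and no exercise. The 9 libraries were chosen by their labels from the SCI + Exercise set (22 libraries), and the whole series holds 37. The question is whether the exercise changed liver gene expression after the injury.

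All 9 animals were female Sprague-Dawley rats, about 8 to 9 weeks old at surgery by their weight, with a 25 g-cm contusion at spinal level T2. All lived in tiny cages, which restrict movement, and by the study's methods shared a cage with another rat of the same group. The labels do not say which rats shared one. By the labels the exercise ran in 5-minute bouts on 5 days a week for 8 weeks from day 10, and every liver of both groups was taken 11.5 weeks after injury. The study's methods give a longer programme and a later collection for the exercised rats than for CONT SCI. If they hold, exercise and the time of collection cannot be told apart. No group was placed in water without exercise, so handling and water cannot be told apart from exercise either. The other Exercise groups were CONT SCI + SWIM (contusion and swimming, 5 rats), TX SCI (complete T2 transection, 4 rats) and No SCI (uninjured, 4 rats). All were in tiny cages and of the same sex, strain and age. By the labels SWIM rats had the contusion and the exercise schedule of the SWW rats, and TX SCI rats were collected at 8.5 weeks. The SCI + In-Cage Activity set (15 libraries) came from rats of the same sex, strain and age at the start. It was collected 11.5 weeks after injury or at the equivalent age. It held CONT SCI + Tiny, with the same labelled contusion and cage size as CONT SCI, CONT SCI + Large and the uninjured No SCI + Standard, with 5 rats each.

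The liver makes most plasma proteins, stores and releases glucose and lipids, and clears drugs and hormones. Its sympathetic supply leaves the cord below T2, so a transection at that level cuts it off from the brain, while a contusion spares part of the cord. Muscular work also reaches the liver through circulating lactate, fatty acids, glucagon and cytokines. The deposited table gives Ensembl rat gene identifiers alone, and 0 of its 24613 identifiers could be matched to a symbol with the reference tables used here. Genes are therefore given by identifier, by count and by level. Gene families, pathways, markers of hepatocytes and of other cell types, and sequences were not analysed here, so the labelled tissue was not checked against its markers.

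Between 28427149 and 35765326 reads were counted on genes in each CONT SCI library and between 30241918 and 35461985 in each CONT SCI + SWW library. With any count, 15429 to 15573 genes were detected in CONT SCI and 14859 to 15510 in CONT SCI + SWW, the lowest being SWW rat 5. Replicates are separate animals, and no 2 libraries of a group agreed within sampling noise (lowest reduced chi-square 37.9 over 16 pairs), so each was counted as 1 sample. The tests treat rats that shared a cage as independent, which could not be checked since the cages are not labelled.

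After SWW, 96 of 12642 tested genes passed an adjusted p under 0.05 by edgeR's quasi-likelihood test (0.759%). Of these, 60 were higher than in CONT SCI (0.475%) and 36 were lower (0.285%). Most differences were of modest size, with a median log2 difference of 0.82 among the genes that rose and of -0.70 among those that fell, beside 0.04 over all tested genes. In total, 31 of the 96 differed by more than 2-fold, 14 by more than 4-fold and 20 by less than 1.5-fold. Over all 12642 tested genes these counts were 244, 30 and 11578. The genes were not confined to low counts, since 74 of the 96 had a mean of at least 100 counts per library. This was near the share over all tested genes, where 9430 of 12642 had such a mean. By quartile of abundance, from the lowest to the highest, 22, 26, 32 and 16 of them were found. The 9 rats did not overlap between the groups in 95 of the 96 genes. Over all tested genes, 517 had every SWW rat above every CONT SCI rat (4.09%) and 578 had every SWW rat below (4.57%). At an unadjusted p under 0.05 there were 2627 genes, 1483 higher and 1144 lower. In bulk tissue, fewer cells of a type and less RNA per cell cannot be told apart.

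The number of genes passing the threshold depended on the tool and on single animals. DESeq2's Wald test called 910 genes, of which 432 were higher and 478 lower, and 94 of the 96 were among them. Fitting all 5 Exercise groups together with edgeR left 20 genes, 10 in each direction, all of them among the 96. Leaving out SWW rat 5 raised the edgeR count to 533, and leaving out SWW rat 1 raised it to 296. In each of these fits 93 of the 96 genes were called. The count fell to 24 without SWW rat 4, to 3 without SWW rat 2 and to 2 without SWW rat 3. It was 11 without CONT SCI rat 1, 8 without rat 2 and 11 without rat 3. Without CONT SCI rat 4 it was 0, with a lowest adjusted p of 0.0632 by edgeR, 1831 genes at an unadjusted p under 0.05 and 217 called by DESeq2.

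**Figure D1:**
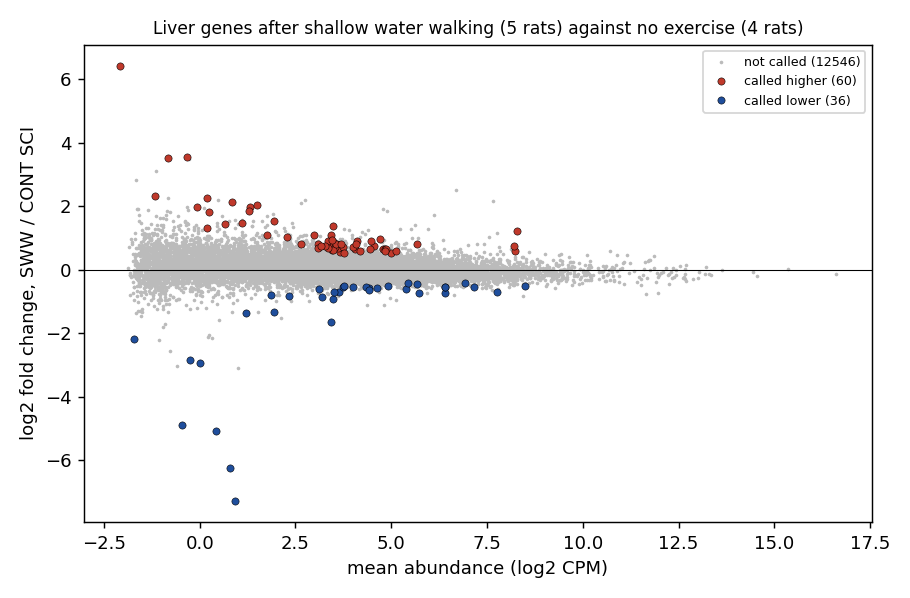
Log2 fold change of CONT SCI + SWW (5 rats) over CONT SCI (4 rats) against mean abundance in log2 CPM (counts scaled to an equal library size), 1 point per tested gene, with the 60 genes called higher in red, the 36 called lower in blue and the others in grey. The called genes spread over the range of abundance, and the points farthest from 0 lie at low abundance.

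**Figure D2:**
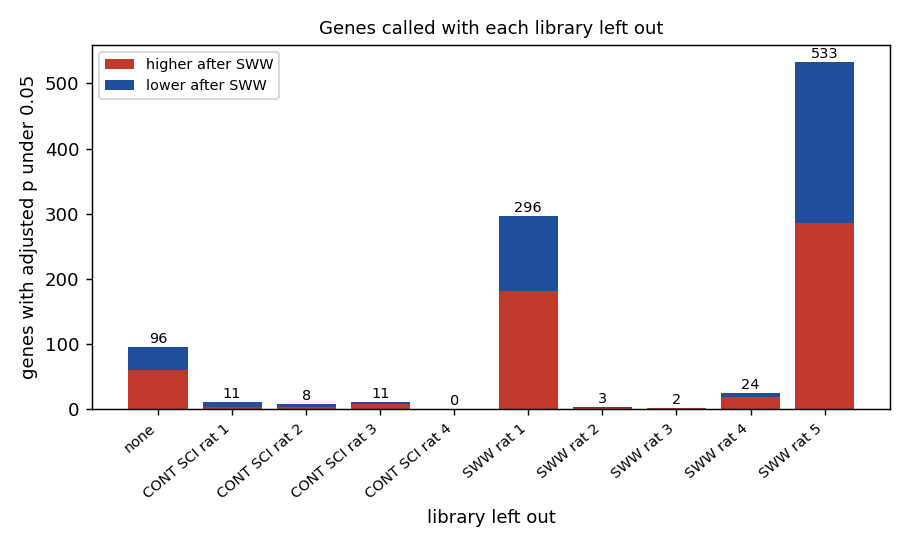
Number of genes with an adjusted p under 0.05 by edgeR with no library left out and with each of the 9 libraries left out, with genes higher after SWW in red and lower in blue. The count was 96 with all libraries, between 0 and 24 without any CONT SCI rat or without SWW rat 2, 3 or 4, and 296 and 533 without SWW rats 1 and 5.

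Over all 12642 genes, 23.5% of the squared distance among the 9 libraries lay between the groups (exact permutation of the labels, one-sided p = 0.0159 over 126 relabellings, smallest possible p 0.00794). SWW rats lay farther from each other (mean distance 61.1 over 10 pairs) than CONT SCI rats did (51.2 over 6 pairs), and the mean distance between the groups was 63.8 over 20 pairs. All 4 CONT SCI libraries and 4 of the 5 SWW libraries had a library of their own group as nearest neighbour. SWW rat 5 was the exception. It stood at -44.6 on the second principal component, where the other 8 libraries lay between -3.73 and 15.1. By mean distance, SWW rats 1 and 5 were nearer to CONT SCI (59.4 and 63.7) than to their own group (61.5 and 67.9). SWW rats 2, 3 and 4 were nearer to their own group. The median gene had a within-group SD of 0.248 log2 units after SWW and of 0.195 in CONT SCI, and the SD was larger after SWW in 66.9% of the genes. This spread was not tested. Without CONT SCI rat 1 or rat 4 the permutation p was 0.0536, and without SWW rat 2 or rat 3 it was 0.0571. With 8 libraries there are fewer relabellings and the smallest possible p is larger, so these values cannot be set directly against 0.0159.

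By rule, the genes named are those with the smallest p among the genes with at least 100 counts on average and no overlap between the groups, at most 2 in each direction. That their groups do not overlap is thus part of the choice. Their levels below are CPM with library sizes scaled over all 37 libraries, so that the groups can be set side by side, while each test used the 9 libraries alone.

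ENSRNOG00000000043 was higher after SWW. Its level was 32.7, 31.6, 29.9, 36.5 and 30.6 CPM in the 5 SWW rats. In the 4 CONT SCI rats it was 16.9, 17.6, 19.3 and 13.6 CPM. The lowest SWW rat stood well above the highest CONT SCI rat, and the means were 32.3 ± 2.58 (SD, n = 5) and 16.9 ± 2.40 CPM (SD, n = 4). The log2 difference was 0.95 (SE 0.12, edgeR adjusted p = 0.0162), a ratio of 1.94. CONT SCI + SWIM rats ranged from 17.7 to 35.5 CPM and so reached from the CONT SCI range into the SWW range. No SCI rats (15.4 to 21.01 CPM) overlapped with CONT SCI. TX SCI rats ranged widely, from 16.7 to 40.04 CPM. In-Cage CONT SCI + Tiny rats had 24.8 to 41.1 CPM, above every CONT SCI rat of the Exercise set and across the SWW range.

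ENSRNOG00000008278 was also higher after SWW. The SWW rats had 26.1, 26.6, 30.97, 28.1 and 26.2 CPM. The CONT SCI rats had 15.9, 18.8, 15.1 and 16.4 CPM. The ranges did not overlap, with means of 27.6 ± 2.03 (SD, n = 5) and 16.6 ± 1.60 CPM (SD, n = 4). The log2 difference was 0.75 (SE 0.10, edgeR adjusted p = 0.0249), a ratio of 1.69. CONT SCI + SWIM rats lay between the groups, at 19.7 to 23.4 CPM, and did not overlap with either. No SCI rats (14.5 to 23.1 CPM) overlapped with CONT SCI, and TX SCI rats (23.4 to 38.7 CPM) overlapped with SWW. The In-Cage CONT SCI + Tiny rats, which share the labelled contusion and cage size with CONT SCI, had 26.7 to 35.8 CPM, within or above the SWW range.

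ENSRNOG00000048576 had the smallest p of the genes that fell. The SWW rats had 6.31, 6.22, 6.71, 4.05 and 3.81 CPM. The CONT SCI rats had 14.03, 21.3, 17.1 and 15.3 CPM. Every SWW rat was below every CONT SCI rat, with means of 5.42 ± 1.37 (SD, n = 5) and 16.95 ± 3.18 CPM (SD, n = 4). The log2 difference was -1.63 (SE 0.19, edgeR adjusted p = 0.0162). CONT SCI + SWIM rats were as low (2.52 to 5.42 CPM). This was the single gene called between SWIM and CONT SCI (1 of 12502 genes, 0.008%), with a log2 difference of -1.95 (SE 0.23, edgeR adjusted p = 0.0291). The SWIM call was lost in 7 of the fits with a library left out (highest edgeR adjusted p = 0.115, without CONT SCI rat 4). No SCI rats had 7.16 to 13.3 CPM, below every CONT SCI rat and above every SWW rat. In-Cage CONT SCI + Tiny rats had 2.30 to 10.2 CPM, also below every CONT SCI rat of the Exercise set.

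ENSRNOG00000016016 fell by less. The SWW rats had 37.3, 29.9, 32.002, 32.2 and 34.8 CPM. The CONT SCI rats had 51.5, 51.0, 50.6 and 52.1 CPM, a narrow range. The means were 33.2 ± 2.87 (SD, n = 5) and 51.3 ± 0.671 CPM (SD, n = 4), and the log2 difference was -0.61 (SE 0.09, edgeR adjusted p = 0.0268). No SCI rats spread more widely than CONT SCI, from 40.1 to 62.6 CPM, on both sides of it and above every SWW rat. TX SCI rats ranged from 30.4 CPM, within the SWW range, to 56.8 CPM, above CONT SCI. In-Cage CONT SCI + Tiny rats had 52.7 to 55.2 CPM, all above both groups but close to CONT SCI. CONT SCI + SWIM rats overlapped with SWW, at 31.7 to 44.1 CPM, apart from rat 3 at 58.8 CPM, above every CONT SCI rat. That library had 13648 genes with any count, the fewest of the whole series. The study also lists it with the lowest share of uniquely mapped reads. Without it the log2 difference of SWIM from CONT SCI was -0.46, against -0.31 with all SWIM rats. With each of the 9 libraries left out in turn, the adjusted p of ENSRNOG00000000043 and of ENSRNOG00000048576 stayed under 0.05 in 8 of the 9 fits (highest 0.0632, without CONT SCI rat 4), that of ENSRNOG00000008278 in 5 and that of ENSRNOG00000016016 in 3 (edgeR).

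**Figure D3:**
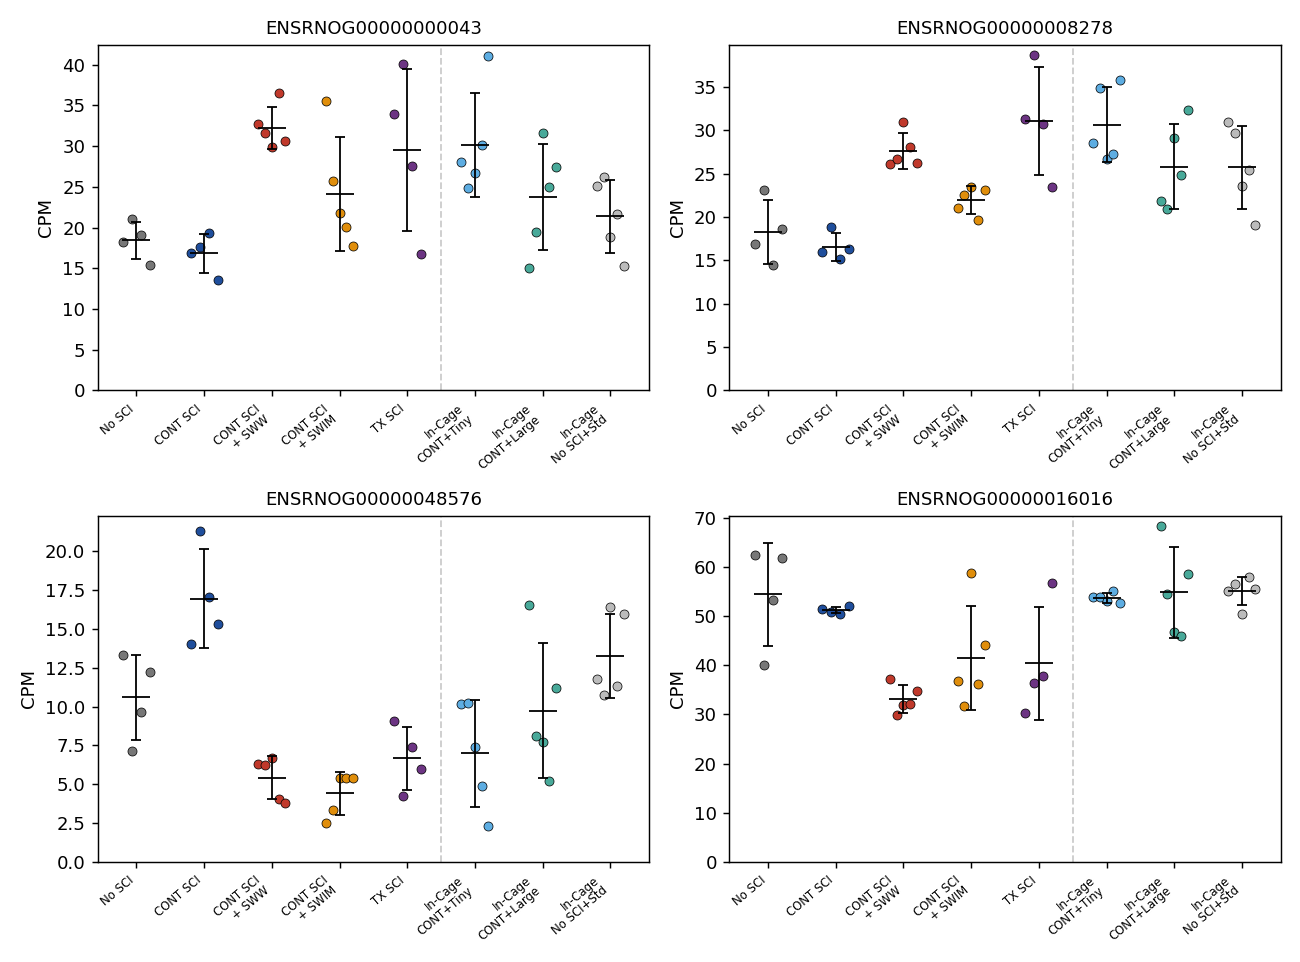
CPM of the 4 named genes in each of the 37 libraries by group, 1 point per rat, with the mean and SD as black bars and the In-Cage set to the right of the dashed line. The SWW and CONT SCI points do not overlap in any panel. In-Cage CONT SCI + Tiny rats lie within or above the SWW range for ENSRNOG00000008278 and close to CONT SCI for ENSRNOG00000016016. The other In-Cage groups spread more widely, down to 19.1 CPM (No SCI + Standard) for ENSRNOG00000008278. For ENSRNOG00000016016, CONT SCI + Large rats range from 46.0 to 68.5 CPM.

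The 14 genes that differed by more than 4-fold all had low counts, and in them the libraries set the groups apart in an unusual way. Of the 7 that fell, 4 had between 0 and 5 counts in every SWW library and between 14 and 298 in every CONT SCI library, with fitted log2 differences of -4.88 to -7.26. Their summed counts in the CONT SCI rats were 91, 111, 456 and 846. In the SWW rats they were 6, 5, 10, 7 and 6. The CONT SCI rats thus differed widely from each other, and even the lowest of them was far above every SWW rat. No SCI rats had 209, 23, 1383 and 157 summed counts. In CONT SCI + SWIM the sums were 3 to 12, in TX SCI 3 to 14, and in the 3 In-Cage groups 3 to 10, with CONT SCI + Tiny at 4 to 8. In the sum of these 4 genes the SWW rats were therefore at the level of 24 other libraries. In that sum, it was the CONT SCI and No SCI libraries of the Exercise set that stood above all others. Their part in the difference between the groups was not tested beyond leaving out single libraries. By single gene, CONT SCI libraries had at least 14 counts. The lowest No SCI count was 3, while SWIM, TX SCI and In-Cage CONT SCI + Large libraries reached 7, so No SCI was not above all others in each gene. Only 1 further tested gene had at most 5 counts in every SWW library and at least 10 in every CONT SCI library.

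The 3 other genes that fell by more than 4-fold had 1 to 11 counts per library after SWW and 11 to 122 in CONT SCI. Their summed level was 0.391 to 0.645 CPM after SWW and 1.55 to 6.73 CPM in CONT SCI. SWIM rats spread from 0.227 to 4.11 CPM, and In-Cage CONT SCI + Tiny rats from 0.919 to 4.52 CPM, so both reached into the CONT SCI range.

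The 7 genes that rose by more than 4-fold had a summed level of 8.27 to 14.6 CPM after SWW and of 1.73 to 2.98 CPM in CONT SCI. No SCI was as low as CONT SCI (2.35 to 3.10 CPM). TX SCI, at 7.27 to 14.1 CPM, and the In-Cage groups, at 6.51 to 19.6 CPM, were above both. SWIM rats had 3.30 to 7.89 CPM and lay between CONT SCI and SWW. One of the 7 had 0 counts in all 4 CONT SCI libraries and 4 to 14 in each SWW library, which makes it at least 13.95-fold higher against a floor of 3 counts over the CONT SCI group. In the other 28 libraries it had 1 to 18 counts. With this gene at its bound, the median of the 60 genes stayed at 0.82. Whether any of the 14 genes shares reads with a near-identical copy was not examined.

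**Figure D4:**
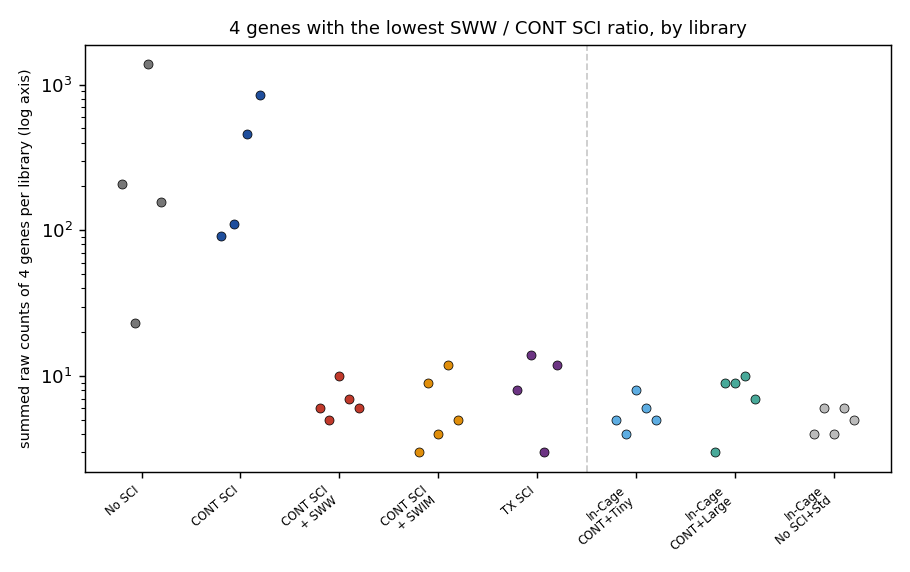
Summed raw counts of the 4 genes with the lowest ratio of SWW to CONT SCI, 1 point per library on a log axis, by group, with the In-Cage set to the right of the dashed line. The 8 CONT SCI and No SCI libraries of the Exercise set lie between 23 and 1383 counts, and the other 29 lie between 3 and 14.

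The 96 genes were next averaged within each rat, on a scale of log2 CPM over all 37 libraries with the CONT SCI mean set to 0. The CONT SCI and SWW values only describe the choice of genes. That choice also used CONT SCI, so the other groups can lie toward SWW from CONT SCI through the choice itself. How much of their offset comes from it was not tested. For the 60 genes that rose, SWW rats stood at 0.924 to 1.19 and CONT SCI rats at -0.109 to 0.0684. No SCI rats were close to CONT SCI, at -0.0933 to 0.278, and SWIM rats were between CONT SCI and SWW, at 0.381 to 0.850. Of the TX SCI rats, 3 lay at 0.929 to 1.02, within the SWW range, and the other at 0.158. The In-Cage rats lay at 0.231 to 0.650, above every CONT SCI rat and below every SWW rat, whether injured or not. Over all 12642 genes, the median difference of any group from CONT SCI was between -0.06 and 0.01 on the same scale.

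For the 36 genes that fell, SWW rats stood at -1.31 to -1.08 and CONT SCI rats at -0.189 to 0.274. No SCI rats spread from -0.525 to 0.442 around the CONT SCI level. The SWIM rats, at -1.12 to -0.931, the TX SCI rats, at -1.06 to -0.599, and the In-Cage rats, at -0.844 to -0.558, were all below every No SCI and CONT SCI rat of the Exercise set. Without the 4 genes that are nearly uncounted outside CONT SCI and No SCI, the mean of the remaining 32 was -0.85 after SWW, -0.61 after SWIM, -0.45 in TX SCI, 0.04 in No SCI and -0.35 to -0.22 in the In-Cage groups. In these 32 genes the highest In-Cage rats (-0.193 in No SCI + Standard, -0.186 in CONT SCI + Large and -0.154 in CONT SCI + Tiny) reached the lowest No SCI rat (-0.194), and so were no longer below all of them. Along these genes, CONT SCI and No SCI of the Exercise set lay together. The means of SWIM, TX SCI and the In-Cage groups lay apart from them in the SWW direction. SWW itself stands there by the choice of genes. In the genes that rose, TX SCI rat 4 and some In-Cage rats overlapped with No SCI. The In-Cage means cover genes that went both ways. Of the 60 genes that rose after SWW, 42 to 45 were above the CONT SCI mean in each In-Cage group and 15 to 18 were below it, 5 to 8 of these by more than 1 log2 unit (lowest -2.69). Of the 36 that fell, 24 or 25 were below the CONT SCI mean and 11 or 12 above it, by up to 0.73. By the labels the SWW, SWIM and CONT SCI livers were taken 11.5 weeks after injury and the No SCI livers at the equivalent age. The injured and uninjured In-Cage livers had the same labelled times as CONT SCI and No SCI. By the study's methods CONT SCI and No SCI shared a time that differed from those of the exercised and TX SCI rats. Dates of collection and of library preparation were not given in the sources used here, and their part in this pattern was not tested.

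**Figure D5:**
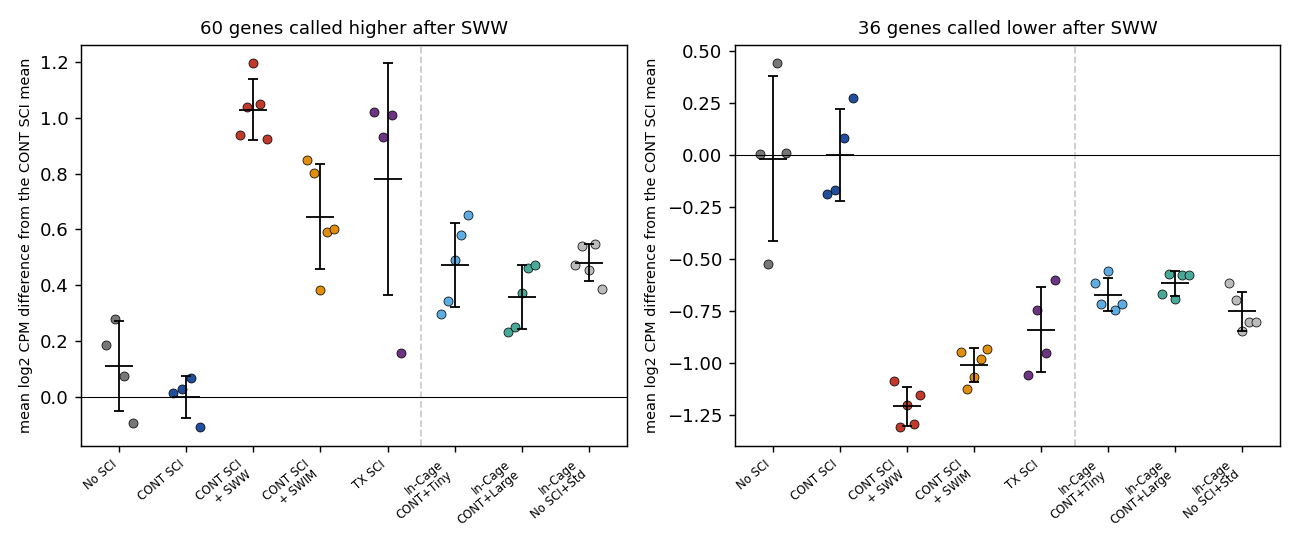
Mean log2 CPM difference from the CONT SCI mean over the 60 genes called higher (left) and the 36 called lower (right) after SWW, 1 point per rat, with the mean and SD as black bars and the In-Cage set to the right of the dashed line. No SCI rats lie around the CONT SCI level, with 1 rat at -0.525 on the right, and the In-Cage rats lie between CONT SCI and SWW.

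The direct comparison of the 2 exercises called 0 of 12525 genes by edgeR (0%), with 680 genes at an unadjusted p under 0.05 and 14 called by DESeq2. The swimming and walking rats share the CONT SCI control, so their differences from it are not independent. Side by side, the genes that rose after SWW had a median log2 difference from CONT SCI of 0.82 after SWW and 0.58 after SWIM, and the genes that fell had -0.70 and -0.50. Of the 90 measured in the direct comparison, 0 were called by edgeR, 21 had an unadjusted p under 0.05 and 1 was called by DESeq2. Since these genes were chosen with the SWW libraries, a smaller value after SWIM is not a test of a difference between the exercises.

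Other comparisons in the series use none of the 9 libraries. SWIM against No SCI called 1 of 12564 genes (0.00796%) and TX SCI against No SCI called 8 of 12530 (0.0638%) by edgeR. Neither called any of the genes that changed after SWW. Of the 89 measured in the first, 50 had an unadjusted p under 0.05 and 20 were called by DESeq2, and of the 92 measured in the second these counts were 47 and 21. Among all genes, 1320 (10.5%) and 1510 (12.1%) of those tested had an unadjusted p under 0.05 by edgeR, and DESeq2 called 200 and 291. In SWIM against No SCI, 52 of 57 measured genes that rose after SWW were above 0 (median 0.49) and 32 of 32 that fell were below 0 (median -0.47). In TX SCI against No SCI, 55 of 60 were above 0 (median 0.65) and 30 of 32 were below 0 (median -0.38). Over all tested genes, 52.0% and 53.1% were above 0, with medians of 0.01 and 0.02. These comparisons share the No SCI libraries with each other, and SWIM and TX SCI differ in injury, exercise and, by the labels, time of collection. The genes not measured had counts under the filter there.

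In the In-Cage set, the comparison of CONT SCI + Large with CONT SCI + Tiny asks what room to move does after the same contusion. It called 0 of 11920 genes by edgeR (0%), with 346 at an unadjusted p under 0.05 and 3 called by DESeq2. Of 57 measured genes that rose after SWW, 15 were above 0 (median -0.11), and of 30 that fell, 11 were below 0 (median 0.03), beside 51.9% of all genes above 0. None of the 87 measured had an unadjusted p under 0.05.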

How the data were processed

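Liver poly(A) RNA of 37 rats was sequenced as single-end reads with a strand-specific kit. Per the study's methods and the submitters' processing notes, the authors checked reads with FastQC 0.10.1, aligned them to rn6 with STAR 2.6 and counted them with HTSeq 0.10.0 on the strand of the gene, using Ensembl 93 without mitochondrial genes. They deposited raw counts per gene (24613 genes), without normalization, and all 37 columns were used. Groups and replicate numbers came from the labels. From these counts, edgeR 4.0.16 in R 4.3.3 (TMM, robust quasi-likelihood fit) compared 2 groups at a time on their own libraries, with 6 comparisons in all. Genes were kept by filterByExpr at a minimum count of 10 and a total of 15. The minimum is asked of about as many libraries as the smaller group holds, so a gene could pass through 1 group alone. An adjusted p under 0.05 (Benjamini-Hochberg) was a call. The SE is the log2 difference over the square root of F. Distances, components and rat means used log2 CPM with a prior count of 2. Alternatives were DESeq2 1.42.0, RLE factors, no filter, a joint fit of every group in the set, a block for the replicate number, and leaving out each library. Scripts were tested on simulated data. The genes named were those with the smallest p, groups that did not overlap and a mean of at least 100 counts, at most 2 per direction, since no symbols were matched. Gene lists and cell type markers written by symbol could therefore not be analysed here. The comparison, the rules and the lists were chosen with earlier results of these data known. The comparisons without the 9 libraries, the rat means, the distances and the 4 genes with few counts after SWW were chosen after the values were seen. Totals were 20066978 to 36761953 counts per library.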

Additional observations from a re-analysis of the deposited data

Results flagged for a closer look

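SWW rat 5 had 14859 genes with any count, apart from the other 4 SWW rats (15371 to 15510). This rat also stood alone on the second principal component, and without it the count of called genes rose from 96 to 533. TX SCI rat 4 stood at 0.158 in the mean level of the 60 genes that rose after SWW, apart from the other TX SCI rats (0.929 to 1.02). These were 2 of 52 groups of values examined with Dixon's test at the 95% level, and chance alone gives about 1 in 20.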

How the results depend on the processing

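The count of genes called after SWW against CONT SCI moved from 96 (60 higher, 36 lower) to 910 (432 and 478) with DESeq2 and to 20 (10 and 10) with all groups in one fit. It was 97 with RLE factors and 134 without a filter. With each library left out it ranged from 0 to 533 (0 to 286 higher, 0 to 247 lower). The replicate block gave 90 (51 higher, 39 lower), of which 46 were among the 96. Replicate numbers did not pair the rats (correlations of same-numbered rats -0.104, -0.135, 0.102 and -0.389). SWW against SWIM gave 14 with DESeq2, 0 with the replicate block and 0 to 1 with a library left out. SWIM against CONT SCI gave 254 with DESeq2, 10 with all groups in one fit, 7 with the replicate block and 0 to 2 with a library left out. The cause of these shifts was not tested. The share of squared distance between the groups was 23.3% with RLE factors, 21.3% without a filter, 24.2% with rlog values and 21.4% to 30.1% with a library left out. Over 56 refits of the 4 named genes, 42 stayed called and 14 passed the threshold no longer. With a library left out, the medians of the genes that rose and fell were 0.42 to 0.60 and -0.61 to -0.43 in SWIM against No SCI, and 0.55 to 0.82 and -0.54 to -0.34 in TX SCI against No SCI. For genes with few counts depth is a limit as well.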
